A study of Homo sapiens with 6 samples.

Results

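Glucose uptake, glycolysis and lactate handling were described at the level of RNA in 786-O cells, a line established from a human clear cell renal carcinoma, after long-term growth with added copper. The genes were chosen by name from the pathway, 35 in all, and each had a row among the 25992 genes of the deposited count table. They covered glucose entry, each step to pyruvate and lactate, lactate export, control of pyruvate entry into mitochondria, and glycogen. Of the 35, 34 passed the filter on low counts and were tested, and FBP1 did not.

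Copper-adapted cultures (3 libraries) were compared with control cultures (3 libraries). Copper sulfate had been bound to the proteins of the serum overnight in the cold before that serum went into the medium, and control serum was handled in the same way without copper. The design text gives a dose of 30 uM, but the treatment entries of the 3 copper libraries give 30, 31 and 32 uM in the order of their numbers, and these libraries were treated as 1 group. Both groups were wild type 786-O cells in DMEM/F12 with serum. All 6 libraries came from 1 cell line, so p-values measure the spread between cultures of that line, and the labels do not say whether the cultures were started separately.

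Cells take up glucose through transporters of the GLUT family and trap it by phosphorylation with hexokinase. Phosphofructokinase commits the sugar to glycolysis and is activated by fructose 2,6-bisphosphate. The later steps yield pyruvate, which lactate dehydrogenase converts to lactate for export or which enters mitochondria through pyruvate dehydrogenase. Clear cell renal carcinoma typically loses the VHL protein, which otherwise marks hypoxia-inducible factors (HIF) for destruction, and many glycolytic genes are HIF targets. 786-O lacks functional VHL, and its active factor is HIF-2, whose alpha subunit is encoded by EPAS1.

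The copper libraries held 16301772 to 18189469 counts and the control libraries 19219090 to 25079913. The 35 genes took 1.85% of all counts in copper replicate 3 and 1.53% to 1.64% in the other libraries. Levels are given as CPM, counts scaled to a common library size with TMM factors, which correct for differences in library makeup. Replicate 3 stood apart in both groups. In chi-square comparisons per degree of freedom, copper replicates 1 and 2 differed by 5.94, and each differed from copper replicate 3 by 63.4 or more. The corresponding control values were 5.42 and at least 21.6. The markers fixed for the line, PAX8, PAX2, KRT8, KRT18, CDH2 and CDH6, summed to 1260 to 1540 CPM in copper and 1310 to 1750 CPM in control. Within this sum, CDH6 was at 90.8 CPM in copper replicate 3 and 121 CPM in control replicate 3, against 198 to 249 CPM in the other libraries. PAX2 was at 8.23 to 9.01 CPM in copper and 5.63 to 7.3 CPM in control, and the other markers of the sum overlapped between groups. VIM, which was on the same list but is also expressed by fibroblasts and other mesenchymal cells, was at 2760 to 3790 CPM in copper and 2890 to 3280 CPM in control. Summed endothelial, leukocyte and erythroid markers reached at most 1.52 CPM in any library, and 5 fibroblast markers 10.1 to 19.3 CPM. HBB was at 0 in all libraries. GAPDH, PGK1, PGAM1, TPI1, ENO1, LDHA, LDHB and SLC2A3 have near-identical copies or pseudogenes in the genome, and how reads that fit several copies were counted is not given in the sources used here, so their levels carry that uncertainty.

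No gene of the pathway passed the test of copper against control. By edgeR's quasi-likelihood test across 12944 genes, 0 of 34 had an adjusted p under 0.05, against 0% of all genes. DESeq2 also called 0 of the 34, against 0.209% of all genes, and limma-voom called 0 of the 34 and of all genes. With no filter on low counts it was 0, against 0.0526%, and without copper replicate 3 it was 0, against 0.115%. At an unadjusted p under 0.05 edgeR gave 1 of the 34, LDHB, against 3.52% of all genes. With replicate number as a block, edgeR called 0 of 34, against 0.17% of all genes, and the count over all genes went from 0 to 22. In that blocked fit the unadjusted p was under 0.05 and copper lower for HK2 and SLC2A3, 2 of 34 against 4.24% of all genes, and copper higher for LDHB, 1 of 34 against 4.16%. The median log2 fold change of the 34 was 0.0060, beside 0.0052 for all genes tested, and the values ran from -0.35 for HK2 to 0.31 for ALDOC. None of the 34 went beyond 0.5 in size, against 3.15% of all genes. Values below 0 were found for 17 of the 34, against 48.6% of all genes, and with scaling by total counts for 12, against 41.2%. These are RNA levels of whole cultures, in which fewer expressing cells and less RNA per cell cannot be told apart.

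Intervals were narrow for most of the genes. For 32 of the 34 genes the 95% interval of the fold change lay within 2-fold in both directions. It lay within 1.5-fold for 26 of them and within 1.25-fold for 17. PFKFB4, with an interval from 0.535 to 2.27 times control, and SLC2A3, from 0.473 to 1.61, were the 2 beyond the 2-fold limits.

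In lactate dehydrogenase, LDHB was higher in every copper library and LDHA was not separated. LDHA and LDHB encode the 2 subunits of the enzyme; the A form is commonly linked to making lactate from pyruvate and the B form to the reverse step. LDHB (Entrez 3945; chromosome 12, 21635342 to 21657855) was at 76.5, 74.0 and 75.9 CPM in copper replicates 1, 2 and 3 and at 65.4, 63.6 and 63.2 CPM in control. All 3 copper libraries were above all 3 control libraries. LDHB averaged 75.5 ± 1.28 CPM with copper against 64.1 ± 1.17 CPM without (SD, n = 3), 1.18 times control with a 95% interval from 1.03 to 1.35. Its log2 fold change of 0.24 (SE 0.08) had an unadjusted p of 0.0234 and an adjusted p of 1 by edgeR, and so did not pass the test over all genes. Leaving out any single library kept it between 0.22 and 0.25.

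LDHA (Entrez 3939; chromosome 11, 18394389 to 18408218) was at 2000, 1930 and 1920 CPM in copper and at 2190, 1980 and 1930 CPM in control. The groups overlapped, and the log2 fold change was -0.06 (SE 0.10). The ratio of LDHA to LDHB counts does not depend on how libraries are scaled. It was 26.1, 26.1 and 25.3 in copper and 33.4, 31.1 and 30.6 in control, with every copper library below every control library. On the log2 scale the ratio was 4.69 ± 0.03 in copper and 4.99 ± 0.07 in control (SD, n = 3), a difference of -0.29. The two-sided exact permutation p was 0.1, the smallest that 3 against 3 libraries can give, and 0.6 adjusted over the 12 isozyme pairs compared.

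**Figure D1:**
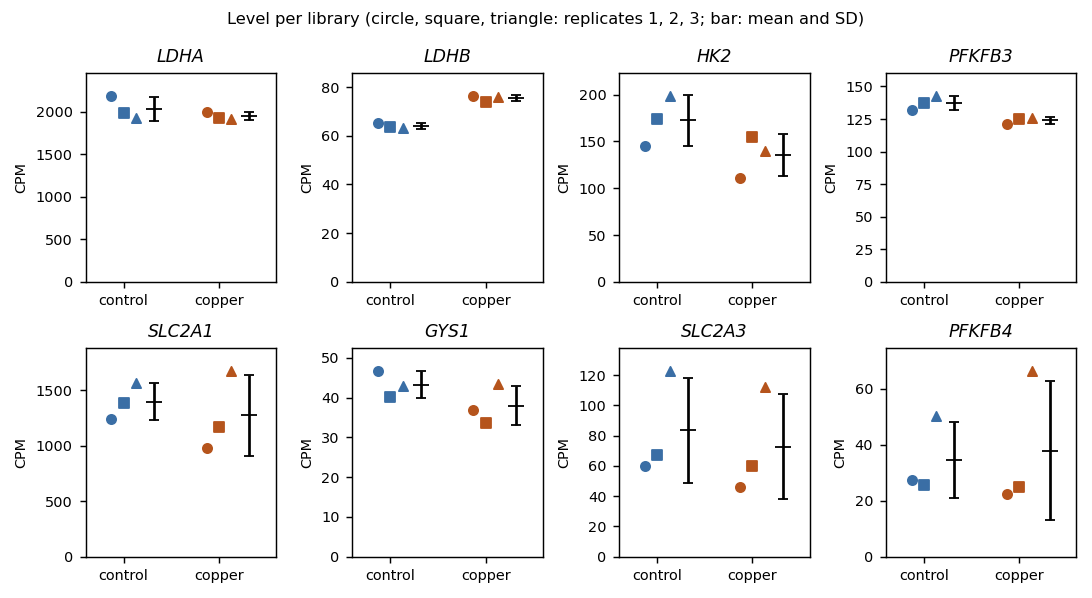
Level in CPM (linear axis from 0) of 8 genes in each control (blue) and copper (brown) library; circles, squares and triangles are replicates 1, 2 and 3, and bars give the mean and SD of 3 libraries. LDHB in copper, 74.0 to 76.5 CPM, lies above control, 63.2 to 65.4 CPM, while SLC2A3 and PFKFB4 are highest in replicate 3 of both groups.

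The promoters of LDHA, LDHB and HK2 are shown because these genes head the lactate and hexokinase results. HIF binds the core letters ACGTG or GCGTG. Each line gives the 250 bases before the RefSeq gene start in GRCh38.p14, read 5′ to 3′ on the gene's own strand, with every match to either core on either strand in capitals. The windows are chr11:18394313-18394562 on the plus strand for LDHA, chr12:21657843-21658092 on the minus strand for LDHB and chr2:74833877-74834126 on the plus strand for HK2. The deposited starts of LDHA and LDHB differ from those of RefSeq and lie inside these windows.
LDHA: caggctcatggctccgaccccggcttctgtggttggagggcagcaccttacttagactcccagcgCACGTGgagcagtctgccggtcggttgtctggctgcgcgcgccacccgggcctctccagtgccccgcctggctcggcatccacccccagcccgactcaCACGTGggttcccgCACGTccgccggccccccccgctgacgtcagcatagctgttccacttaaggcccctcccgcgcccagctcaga
LDHB: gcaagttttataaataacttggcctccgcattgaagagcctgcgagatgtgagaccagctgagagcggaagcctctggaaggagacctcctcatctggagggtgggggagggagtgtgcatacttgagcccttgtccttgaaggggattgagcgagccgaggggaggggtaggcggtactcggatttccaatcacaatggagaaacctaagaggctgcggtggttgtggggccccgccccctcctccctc
HK2: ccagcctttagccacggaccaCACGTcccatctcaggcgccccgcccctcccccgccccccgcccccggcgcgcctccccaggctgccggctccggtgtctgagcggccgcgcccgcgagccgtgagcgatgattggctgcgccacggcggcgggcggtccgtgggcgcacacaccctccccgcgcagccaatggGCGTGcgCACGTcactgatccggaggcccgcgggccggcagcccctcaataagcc
The LDHA window held 5 matches, 4 of them in a pair of CACGTG sites, where the core is read on both strands and the matches overlap. CACGTG is also the E-box bound by MYC. The HK2 window held 3 matches and the LDHB window 0. RefSeq promoters were matched for 32 of the 35 genes, and 18 of the 32 (56.2%) held at least 1 match, beside 43.2% of all 35116 promoters. For the 32 genes the first listed promoter of each was used, while the 35116 were all listed promoters, with no such choice. The shares therefore compare sets that were chosen differently. For some of the 32 genes, among them GPI, GAPDH and PFKFB4, the promoter used lay inside the gene and not before its outermost RefSeq start. ACGTG alone was in 34.4% of the 32 and 18.5% of all promoters, GCGTG in 37.5% and 32.2%, and CACGTG in 9.38% and 6.34%. These are counts of letters and say nothing of binding in these cells.

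Lactate leaves cells through monocarboxylate transporters that need basigin (BSG) to reach the membrane. SLC16A3, which encodes the exporter MCT4, was at 267, 268 and 444 CPM in copper and at 290, 285 and 349 CPM in control. Replicate 3 was highest in each group and the groups overlapped, with a log2 fold change of 0.08 (SE 0.21). BSG had the same order, with 662, 699 and 1030 CPM in copper and 700, 720 and 813 CPM in control. SLC16A1, which encodes MCT1, was at 160 to 202 CPM in copper and 182 to 203 CPM in control (log2 fold change -0.09, SE 0.11). The SLC16A3 to SLC16A1 count ratio was 1.45, 1.33 and 2.77 in copper and 1.49, 1.41 and 1.92 in control. Its exact permutation p was 0.9.

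Glucose entry genes were lower in copper in replicates 1 and 2. SLC2A1 (Entrez 6513; chromosome 1, 42925355 to 42958868) encodes GLUT1, the main glucose transporter of many tumour cells. It was at 978, 1170 and 1680 CPM in copper and at 1240, 1390 and 1570 CPM in control. Copper was below control in replicates 1 and 2, by -0.35 and -0.25 on the log2 scale, and above it by 0.10 in replicate 3. The log2 fold change over all libraries was -0.14 (SE 0.20), and with replicates 1 and 2 alone it was -0.30 with an adjusted p of 0.192 by edgeR. Without copper replicate 3 alone it was -0.39 with an adjusted p of 0.399 by edgeR. SLC2A3 (Entrez 6515; chromosome 12, 7919230 to 7936187), which encodes the high-affinity transporter GLUT3, was at 46.2, 60.1 and 112 CPM in copper and at 59.9, 67.3 and 123 CPM in control. It was lower in copper in each replicate number, by -0.37, -0.16 and -0.14, but the spread within each group was larger than these differences. SLC2A3 had a log2 fold change of -0.20 (SE 0.38) over all libraries. With replicates 1 and 2 alone it was -0.26, and without control replicate 3 alone, which leaves the numbers unbalanced, it was 0.19.

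Hexokinase 2 had the largest log2 fold change of the 34 genes in size. HK2 (Entrez 3099; chromosome 2, 74834127 to 74893358), the inducible hexokinase of tumours, was at 111, 155 and 140 CPM in copper and at 145, 174 and 199 CPM in control. It was lower in copper in each replicate number, by -0.38, -0.17 and -0.51, and the groups overlapped through copper replicate 2 and control replicate 1. HK2 averaged 135 ± 22.1 CPM with copper against 173 ± 26.9 CPM without (SD, n = 3), 0.784 times control with an interval from 0.605 to 1.01. Its log2 fold change of -0.35 (SE 0.16) had an unadjusted p of 0.0611 and an adjusted p of 1 by edgeR. With the replicate block edgeR gave an unadjusted p of 0.00516 and an adjusted p of 0.344. Without each library in turn, the log2 fold change ran from -0.47 to -0.23. HK1, the housekeeping form, was at 301 to 309 CPM in copper and 305 to 322 CPM in control. The HK2 to HK1 count ratio was 0.370, 0.511 and 0.452 in copper and 0.452, 0.547 and 0.654 in control, with an exact permutation p of 0.3. GPI, which isomerises glucose 6-phosphate, had equal means of 223 CPM in the 2 groups. The summed level of HK1, HK2 and GPI was 632, 667 and 691 CPM in copper and 694, 721 and 718 CPM in control, without overlap. Of these 3 genes HK2 differed most between group means, and its own groups overlapped. The highest copper sum, 691 CPM, lay close to the lowest control sum, 694 CPM. The sums of the other roles with more than 1 gene overlapped between groups. No sum was tested, and no share over other sets of genes was computed.

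The phosphofructokinase subunits gave log2 fold changes from -0.01 to 0.04. PFKP, the platelet form, was at 1060, 1040 and 1250 CPM in copper and at 1080, 1060 and 1120 CPM in control. PFKL, the liver form, was at 267, 265 and 341 CPM in copper and at 286, 304 and 291 CPM in control. PFKM, the muscle form, was at 77.4 to 91.5 CPM in copper and 79.4 to 90.3 CPM in control. For all 3 the copper library was below control in replicates 1 and 2 and above it in replicate 3. The direction of the small PFKL and PFKM values over all libraries, -0.01 and -0.01, turned positive with upper-quartile or total-count scaling. The PFKP to PFKL and PFKM to PFKL count ratios overlapped between groups, with exact permutation p of 0.4 and 0.8.

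Among the enzymes that set fructose 2,6-bisphosphate, PFKFB3 was lower in every copper library. PFKFB3 (Entrez 5209; chromosome 10, 6146248 to 6235544), a kinase that makes this activator, was at 121, 125 and 126 CPM in copper and at 132, 137 and 143 CPM in control. The highest copper library was below the lowest control library. PFKFB3 averaged 124 ± 2.29 CPM with copper against 137 ± 5.81 CPM without (SD, n = 3), and its log2 fold change of -0.15 (SE 0.08) had an unadjusted p of 0.121 and an adjusted p of 1 by edgeR. Groups did not overlap, with copper lower, for 1 of the 34 genes, against 5.35% of all genes. They did not overlap, with copper higher, for 1 of the 34, LDHB, against 5.45%. Each is 2.94% of the 34.

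PFKFB4 (Entrez 5210; chromosome 3, 48517684 to 48556803), another kinase of this family and a known HIF target, was at 22.4, 25.0 and 66.6 CPM in copper and at 27.6, 25.8 and 50.4 CPM in control. Replicate 3 was the highest library of each group, and the log2 fold change of 0.14 had an SE of 0.45. With replicates 1 and 2 alone it was -0.17, and without copper replicate 3 alone it was -0.54. PFKFB2, a further kinase of the family, was at 16.2, 18.4 and 9.39 CPM in copper and at 13.7 to 15.3 CPM in control. TIGAR, a phosphatase that breaks down the activator, was at 4.75, 5.22 and 2.70 CPM in copper and at 4.34, 3.97 and 2.52 CPM in control. It was higher in copper in each replicate number, with a log2 fold change of 0.21 (SE 0.30), and lowest in replicate 3 of both groups.

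From aldolase to pyruvate kinase, 9 genes gave log2 fold changes from -0.17 for ALDOA to 0.31 for ALDOC. The abundant enzymes lay close to 0. The log2 fold change was 0.02 (SE 0.11) for the enolase ENO1, 0.03 (SE 0.10) for the pyruvate kinase PKM, and 0.10 (SE 0.16) for GAPDH. It was 0.01 for the isomerase TPI1 and -0.05 each for the kinase PGK1, which makes ATP, and the mutase PGAM1. The neuronal-type enolase ENO2 was at 84.6, 98.6 and 173 CPM in copper and at 98.7, 98.5 and 151 CPM in control, and was highest in replicate 3 of both groups. For 8 of these 9 genes copper was higher in replicate 3, with PGAM1 the exception, and for 8 of the 9, all but ALDOC, it was lower in replicate 1.

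The aldolases were counted at low levels. ALDOA, the main muscle-type and ubiquitous form, was counted 142 to 252 times per copper library and 214 to 287 times per control library (8.66 to 13.6 and 10.5 to 13.1 CPM). The table has another row on the same strand, LOC112694756 (chromosome 16, 30053090 to 30070420), which covers 100% of ALDOA (chromosome 16, 30065760 to 30070414) and had 41 to 81 counts. How the counting treated reads that fit both rows is not given in the sources used here, so the level of ALDOA is uncertain. ALDOC was at 4.82, 4.82 and 8.47 CPM in copper and at 3.86, 4.61 and 6.18 CPM in control, with a log2 fold change of 0.31 (SE 0.28). Copper was higher in each replicate number, by 0.32, 0.07 and 0.45. The log2 fold change was 0.19 with replicates 1 and 2 alone and -0.0101 without copper replicate 3 alone. The ALDOC to ALDOA count ratio was 0.558, 0.542 and 0.624 in copper and 0.336, 0.441 and 0.473 in control. These groups did not overlap, with an exact permutation p of 0.1 (0.6 adjusted over the 12 pairs), and the value carries the uncertainty of ALDOA. LDHA to LDHB and ALDOC to ALDOA were the 2 of 12 pairs without overlap, and the other 10 had exact permutation p from 0.3 to 1. A proportion of 0.1 of the possible groupings of 3 against 3 libraries separates fully, and no share over other gene pairs was computed. The count of 2 is therefore not read as a result.

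**Figure D2:**
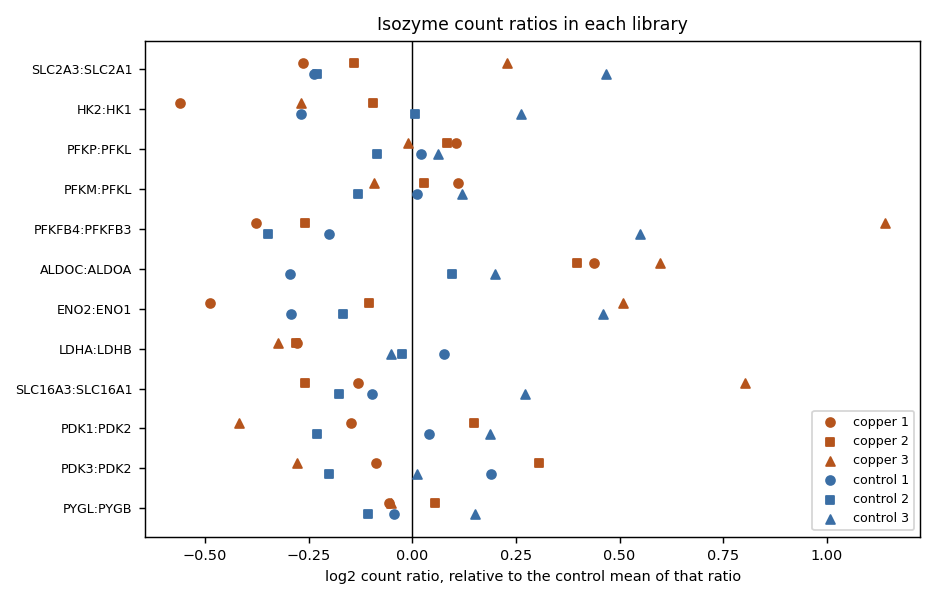
Log2 ratio of the counts of 2 isozymes in each library, relative to the control mean of that ratio (x axis), for 12 pairs (y axis); brown is copper, blue is control, and shapes are replicates 1, 2 and 3. LDHA:LDHB lies lower in copper by 0.29 on average with little spread, ALDOC:ALDOA lies higher by 0.48, and PFKFB4:PFKFB3 spreads most, with replicate 3 far to the right in copper.

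Pyruvate dehydrogenase kinases, which switch off pyruvate entry into the citric acid cycle, showed no separation of the groups. PDK1, a HIF target in many cells, was at 41.0, 41.1 and 36.8 CPM in copper and at 37.5, 37.9 and 46.3 CPM in control. It was higher in copper in replicates 1 and 2, by 0.13 and 0.12, and lower by -0.33 in replicate 3, the reverse of the order seen for SLC2A1. PDK3 was at 41.5 to 46.8 CPM in copper and 39.6 to 42.6 CPM in control (log2 fold change 0.09, SE 0.09). PDK2, a widely expressed form, was at 7.35 to 9.77 CPM in copper and 7.24 to 8.82 CPM in control. The PDK1 to PDK2 and PDK3 to PDK2 ratios had exact permutation p of 0.6 and 1.

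In glycogen metabolism, GYS1 had the largest difference of the 5 genes. GYS1 (Entrez 2997; chromosome 19, 48968130 to 48993309), the glycogen synthase outside liver, was at 36.8, 33.7 and 43.4 CPM in copper and at 46.8, 40.1 and 42.9 CPM in control. Copper was lower in replicates 1 and 2, by -0.35 and -0.25, and equal within 0.02 in replicate 3, for a log2 fold change of -0.19 (SE 0.12). PGM1, which links glucose 6-phosphate to glycogen, UGP2, which makes UDP-glucose, and the phosphorylases PYGL and PYGB, which break glycogen down, had log2 fold changes from -0.02 to 0.04, each with an interval within 0.856 to 1.20 times control. FBP1, the gluconeogenic enzyme that opposes phosphofructokinase and is often lost in clear cell renal carcinoma, had 0 counts in all 6 libraries. With 3 counts as the limit that a count of 0 allows, its level was below 0.121 to 0.183 CPM, depending on the library. This limit covers counting error only.

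The replicate numbers split the 34 genes. In replicate 1, 27 of the 34 genes (79.4%) were lower in copper than in control, against 49.3% of all genes, and in replicate 2 it was 24 (70.6%), against 48.4%. In replicate 3 the number was 10 (29.4%), against 49.8%. The medians of the 34 were -0.08, -0.04 and 0.10 in replicates 1, 2 and 3, while those of all genes were between 0.0019 and 0.0070. Being lower in replicates 1 and 2 and higher in replicate 3 was the pattern of 16 of the 34 genes (47.1%), against 14.1% of all genes. These 16 were SLC2A1, HK1, GPI, PFKL, PFKM, PFKP, PFKFB4, ALDOA, TPI1, PGK1, ENO1, SLC16A3, BSG, PGM1, GYS1 and PYGB. Signs alone were counted, whatever the size of the difference. In replicate 3 the log2 differences of the 16 ran from 0.0188 for PFKM to 0.40 for PFKFB4. The opposite pattern was shown by 3 genes, PFKFB2, PDK1 and PDK3, against 15.6% of all genes. Genes lower in copper in all 3 numbers were SLC2A3, HK2, PFKFB3, PGAM1, LDHA, SLC16A1 and UGP2, 7 of 34 against 17% of all genes. LDHB, ALDOC and TIGAR were higher in all 3, against 17.8%. The 46 further pathway genes tested, described below, did not share the split. Only 4 of them (8.7%) were lower in replicates 1 and 2 and higher in replicate 3. In replicates 1, 2 and 3, 54.3%, 41.3% and 52.2% of the 46 were lower in copper. The median shift of the 34 genes in replicate 3, from the mean of replicates 1 and 2, was 0.18 in copper and 0.02 in control. For all genes these medians were -0.0022 and 0.0079. The larger shift of the 34 was thus that of 1 library, copper replicate 3. The difference between replicate 3 and the other numbers was not tested, since it has 1 library in each group.

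**Figure D3:**
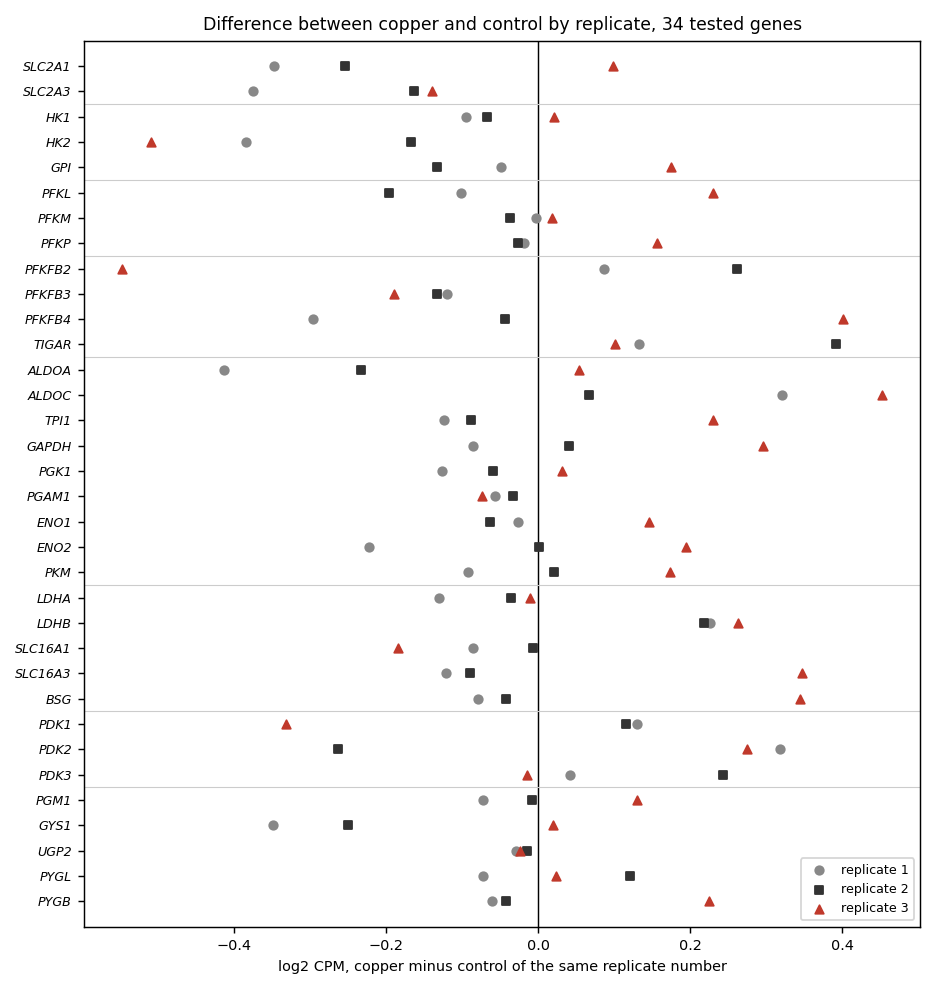
Log2 CPM of copper minus control with the same replicate number (x axis) for the 34 tested genes (y axis, ordered by role, grey lines between roles); circles, squares and triangles are replicates 1, 2 and 3. Red triangles lie to the right of 0 for 24 genes, while circles lie to the left for 27 and squares for 24; LDHB is right of 0 and HK2 left of 0 in all 3.

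The paired fit made calls when replicate 3 was left out. With the block and replicates 1 and 2 alone, edgeR called 6 of the 34 genes, 5 lower and 1 higher, against 7.03% of all genes (4.16% lower and 2.88% higher). The lower genes were SLC2A1 (log2 fold change -0.30, adjusted p 4.57e-05), HK2 (-0.27, 0.00277), GYS1 (-0.30, 0.00752), SLC2A3 (-0.27, 0.0125) and PFKL (-0.15, 0.0291). LDHB was higher (0.22, adjusted p 0.0137 by edgeR). Those 4 libraries leave 1 residual degree of freedom per gene, and in the same 4 libraries without the block 0 of the 34 were called, against 0.856% of all genes. In that unblocked fit the smallest adjusted p of the 34 was 0.168, for LDHB. The blocked calls rest on pairing replicates 1 and 2 by number. The difference between these replicates correlated at only 0.141 between groups over all genes.

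Within each group, replicate 3 differed from replicates 1 and 2 at several of these genes. In copper, 8 of the 34 genes were higher in replicate 3 by more than 0.5 on the log2 scale, against 16% of all genes, and in control 4 were, against 8%. The 4 in control were also among the 8 in copper. The shift was 1.49 in copper and 0.92 in control for PFKFB4, 1.09 and 0.96 for SLC2A3, 0.92 and 0.62 for ENO2, and 0.81 and 0.55 for ALDOC. In copper SLC16A3, SLC2A1, ALDOA and BSG followed at 0.73, 0.66, 0.63 and 0.60, with 0.28, 0.26, 0.25 and 0.20 in control. TIGAR was lower in replicate 3, by -0.88 in copper and -0.72 in control, and PFKFB2 by -0.88 and -0.16. Across the 34 genes the shifts in the 2 groups had a Pearson r of 0.849, beside 0.64 over all 12944 genes. Genes are not independent, and the 2 libraries share a replicate number whose meaning the labels do not give. Replicate 3 was the deepest copper library, at 18189469 counts, and the shallowest control library, at 19219090.

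**Figure D4:**
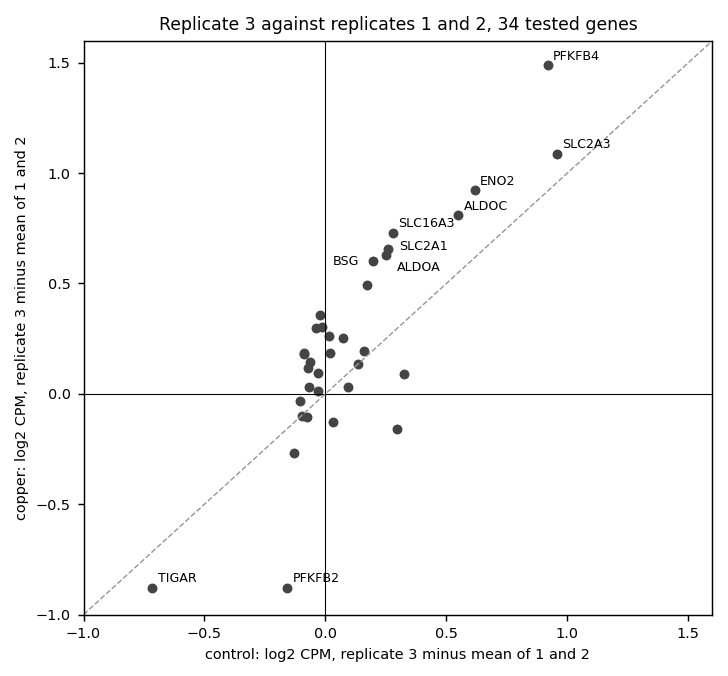
Log2 CPM of replicate 3 minus the mean of replicates 1 and 2, in control (x axis) and in copper (y axis), 1 point per tested gene; the dashed line marks equal shifts. PFKFB4, SLC2A3, ENO2 and ALDOC lie far to the upper right and TIGAR to the lower left, and the genes at the upper right lie above the line, with a larger shift in copper.

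Per kilobase of transcript, most families had 1 dominant member. Levels here are CPM per kilobase of the median GENCODE 29 coding transcript, mean ± SD of 3 control libraries. ENO1 was highest at 1540 ± 82.0, followed by LDHA at 1110 ± 73.6, GAPDH at 1080 ± 83.7 and PKM at 1030 ± 59.1, and these last 3 lay within their spread of each other. SLC2A1 stood at 666 ± 78.2, far above SLC2A3 at 21.3 ± 8.86. HK1 at 81.7 ± 2.31 was above HK2 at 31.3 ± 4.86. PFKP at 410 ± 12.5 was above PFKL at 193 ± 6.04 and PFKM at 29.3 ± 1.96. LDHB at 45.1 ± 0.824 and ENO2 at 48.0 ± 12.6 were minor forms beside LDHA and ENO1. PYGL at 51.7 ± 3.16 was above PYGB at 37.8 ± 1.35, with neither dominant. The order within each of these families was the same in copper and when the longest transcript was used. For PDK1 the choice of transcript decided the level per kilobase, 13.6 with the median and 2.86 with the longest.

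**Figure D5:**
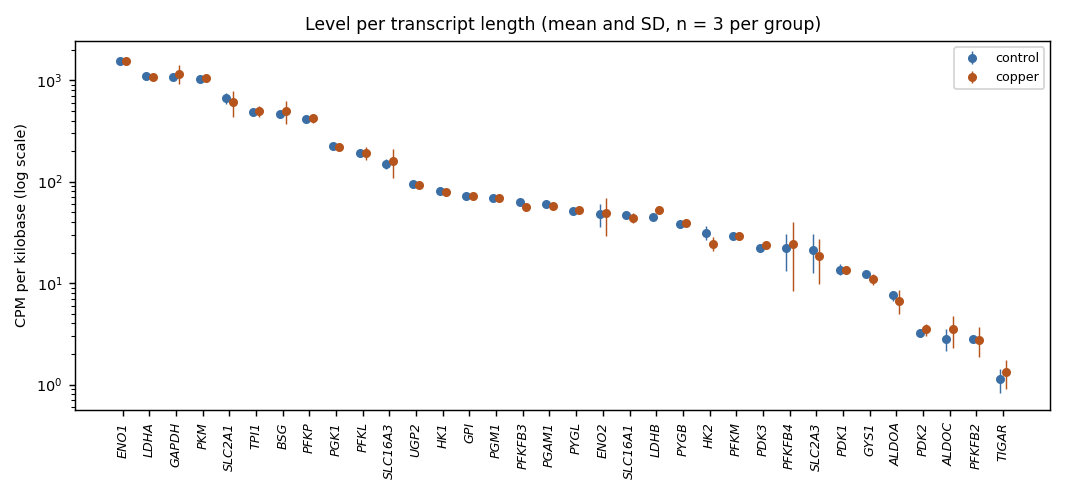
Level in CPM per kilobase of transcript (y axis, log scale) of the 34 genes with counts, ordered by the control mean (x axis); points are means and bars the SD of 3 libraries, blue control and brown copper. The order spans from ENO1 at 1540 to TIGAR at 1.13 in control, and the copper and control points of most genes coincide.

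A wider set of glucose, pyruvate and glycogen genes gave no calls over all libraries, and gave calls in the paired fit without replicate 3. Of 70 further genes, 46 were tested, and edgeR called 0 of them in the fit without the block, against 0% of all genes. The blocked fit also called 0, against 0.17%. At an unadjusted p under 0.05 there were 0 without the block, against 3.52% of all genes, and DESeq2 called 0. Their median log2 fold change was 0.02. Copper was lower without overlap for 5 of the 46 (SLC2A13, ADPGK, PDP1, PDPR and PDHX), against 5.35% of all genes, and higher without overlap for 1, G6PC3, against 5.45%. In the blocked fit the unadjusted p was under 0.05 with copper lower for 5 of the 46 (SLC2A13, PGM2L1, PPP1R3B, PPP1R3C and EPAS1), against 4.24% of all genes. With copper higher it was 0 of the 46, against 4.16%. With the block and replicates 1 and 2 alone, edgeR called 6 of the 46, 4 lower and 2 higher, against 7.03% of all genes (4.16% lower and 2.88% higher). The lower genes were EPAS1 (log2 fold change -0.24, adjusted p 0.000849), PPP1R3C (-0.49, 0.00248), PCK2 (-0.33, 0.00336) and MYC (-0.17, 0.0337), and the higher were GBE1 (0.18, 0.0198) and SLC16A7 (0.27, 0.026). Over all libraries, the 6 with the smallest p were PGM2L1, PPP1R3C, G6PC3, SLC2A13, PDHX and MPC1, with unadjusted p from 0.0671 to 0.16 by edgeR's quasi-likelihood test. PPP1R3C, which targets a phosphatase to glycogen, was at 12.6, 14.1 and 19.9 CPM in copper and at 17.8, 19.9 and 25.5 CPM in control. It was lower in copper in each replicate number, with a log2 fold change of -0.43 (SE 0.21) and a blocked adjusted p of 0.206 by edgeR. PGM2L1, which makes glucose 1,6-bisphosphate, had a log2 fold change of -0.33 (SE 0.16). SLC2A13, the proton myo-inositol cotransporter, was at 34.4, 34.9 and 18.8 CPM in copper and at 37.7 to 38.3 CPM in control, with a log2 fold change of -0.37 that was -0.14 without copper replicate 3. The other values were 0.23 for G6PC3, a glucose 6-phosphatase, -0.15 for PDHX, a pyruvate dehydrogenase component, and -0.21 for MPC1, a subunit of the mitochondrial pyruvate carrier. EPAS1 was at 308, 334 and 406 CPM in copper and at 374, 381 and 441 CPM in control, with a log2 fold change of -0.19 (SE 0.13), and HIF1A lay between 6.69 and 11.8 CPM in all libraries.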

How the data were processed

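RNA of 3 copper and 3 control cultures was made into libraries with the NEBNext Ultra II Directional kit, as the extract protocol states. The authors deposited raw counts per gene in a single table. STAR, FastQC, edgeR and GRCh38 are named in the submitters' processing notes. The counting program, its use of strand and its treatment of reads that fit several genes are not given in the sources used here. Rows without a symbol (5, with 0.000814% of counts) were left out.

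In R 4.3.3, edgeR 4.0.16 was run over the 12944 genes passing filterByExpr (minimum count 10, minimum total 15), with TMM scaling, robust quasi-likelihood fitting, prior count 2, group as the only term, Benjamini-Hochberg adjustment and a threshold of 0.05. Standard errors came from the log2 fold change and its F statistic. Isozyme ratios added 0.5 to each count and were tested with two-sided exact permutation. Alternatives used DESeq2 1.42.0, limma 3.58.1, other scalings and filters, and fewer libraries. The fitting code was tested on simulated counts, with 200 genes changed. Without the block it called 0 of the 200 at a 1.25-fold change, 72 at 1.5-fold and 189 at 2-fold. A lack of calls therefore does not exclude changes of about 1.25-fold. To the deposited starts 1 was added. The deposited position of SLC16A1 differs from RefSeq's and is not printed. GENCODE 29 gave transcript lengths and RefSeq the promoters.

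Both groups carry replicate numbers 1 to 3. Across genes, deviations from the group means correlated between same-numbered libraries at 0.438, 0.378 and 0.64. All were above 0.1, so the numbers were taken to pair the libraries. The replicate block is given where it changes a count of calls. Deviations cancel within a group and replicate 3 stood apart in both groups, so the values for replicates 1 and 2 also carry its shift. They cannot show that replicates 1 and 2 are paired. Correlations between libraries of different numbers were not computed. Without replicate 3, the difference between replicates 1 and 2 correlated at 0.141 between groups. The genes and lists were chosen with earlier results of these data known. The naming rule asked for values per library of genes whose groups did not overlap, genes called in either fit, the 6 with the smallest p, the 6 with the largest fold change, and SLC2A1, HK2, PFKFB3, LDHA and SLC16A3. Of the wider list it named called genes and the 6 with the smallest p. Other genes, among them those called without replicate 3, were named after their values had been seen.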

Additional observations from a re-analysis of the deposited data

How the results depend on the processing

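None of the 34 genes was called under any alternative but 1. The exception was the replicate block without replicate 3 of both groups, which called 6 of them (5 lower and 1 higher) and 6 of the 46 further genes (EPAS1, PPP1R3C, PCK2 and MYC lower, GBE1 and SLC16A7 higher), against 7.03% of all genes (4.16% lower and 2.88% higher). The count over all genes was 0 without the block, 22 with the replicate block, 27 with DESeq2, 12 with no filter on low counts and 111 with replicates 1 and 2 alone. It ran from 0 to 15 when each library was left out in turn, with 15 reached without copper replicate 3. The cause of these differences was not tested. The number of isozyme ratios without overlap was 2, and 4 with replicates 1 and 2 alone, where fewer libraries can overlap. No share over other gene pairs was computed for these counts. Leaving out each library in turn gave 2 to 3.

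Pairing by replicate number left the pathway genes at 0 calls and gave 3 isozyme ratios with 1 direction in all pairs. It turned the sign of 1 log2 fold change, -0.0073 for ENO2, and changed no other call.

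Signs turned among the small values, none of them called. Upper-quartile scaling gave 0.0141 for PFKL, 0.0196 for PFKM and 0.0018 for PFKFB2. Scaling by total counts gave 0.0157 for PFKL, 0.0226 for PFKM, 0.0115 for PFKFB2 and 0.0043 for UGP2. With no filter the values were -0.0081 for TPI1 and -6e-04 for ENO1, and limma-voom gave -0.0059 for ENO2. Replicates 1 and 2 alone gave -0.0229 for PFKP, 0.18 for PFKFB2, -0.17 for PFKFB4, -0.11 for TPI1, -0.0236 for GAPDH, -0.0444 for ENO1, -0.11 for ENO2, -0.0376 for PKM, -0.11 for SLC16A3, -0.0609 for BSG, 0.12 for PDK1, -0.0387 for PGM1 and -0.0519 for PYGB. With each library left out in turn the log2 fold change ran from -0.39 to 0.0217 for SLC2A1, -0.65 to 0.19 for SLC2A3, -0.14 to 0.0446 for PFKL, -0.0741 to 0.048 for PFKM, -0.0476 to 0.087 for PFKP, -0.21 to 0.22 for PFKFB2, -0.54 to 0.51 for PFKFB4, -0.0101 to 0.51 for ALDOC, -0.0944 to 0.077 for TPI1 and -0.0834 to 0.19 for GAPDH. It also ran from -0.0204 to 0.074 for ENO1, -0.34 to 0.27 for ENO2, -0.016 to 0.0787 for PKM, -0.20 to 0.21 for SLC16A3, -0.13 to 0.22 for BSG, -0.0915 to 0.0713 for PDK1, -0.0448 to 0.0799 for PGM1, -0.0558 to 0.0094 for UGP2, -0.0223 to 0.072 for PYGL and -0.0228 to 0.0724 for PYGB. LDHB, HK2, PFKFB3, LDHA, GYS1 and TIGAR kept their sign under each of these. With 3 libraries in each group, the 95% interval stayed within 1.5-fold for 26 of the 34 genes, and TIGAR, ALDOC and PDK2 rest on the fewest counts of the genes tested.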
